A study of Arabidopsis thaliana with 6 samples.

Results

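The 10 genes followed here belong to the core of the plant low-oxygen response and are 10 of the 38194 genes in the deposited expression table. They were taken by identifier: ADH1 (AT1G77120), PDC1 (AT4G33070), HB1 (AT2G16060), PCO1 (AT5G15120), PCO2 (AT5G39890), SUS1 (AT5G20830), SUS4 (AT3G43190), LBD41 (AT3G02550), HRA1 (AT3G10040) and SAD6 (AT1G43800). All 10 had a row, and all 10 reached a mean of 1 RPKM (RPKM counts reads relative to gene length and library size) in Col-0 alone, so none entered the test only through a higher value in the other group. RNA came from whole Arabidopsis thaliana seedlings 7 days after stratification. One group was wild-type Col-0, the reference accession, with 3 biological replicates. The other was an sqtl1 RNAi line in the Col-0 background, also with 3. Both groups grew at 22 ºC in long days (16/8 hours of light and dark) on half-strength MS agar containing 1% sucrose, and the labels name no low-oxygen treatment. One RNAi line was measured. The sources used here give neither its promoter nor the identifier of its target, and the knockdown itself was not analysed here.

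When oxygen is short, mitochondria cannot re-oxidise NADH fast enough, and plant cells turn to fermentation: pyruvate decarboxylase makes acetaldehyde and alcohol dehydrogenase reduces it to ethanol, which regenerates NAD+ for glycolysis. The genes for these steps are switched on by group VII ethylene response factors (ERF-VII), such as RAP2.2 and RAP2.12. In air, plant cysteine oxidases use oxygen to oxidise the cysteine at the start of these factors and so mark them for degradation, and the oxidase genes PCO1 and PCO2 are themselves targets of the factors. In Arabidopsis seedlings, part of this gene set is also known to respond to sugar, cold, abscisic acid and nitric oxide.

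The promoter sequences of 4 of the genes are shown because they frame the results below: ADH1 and PDC1 encode the pair of fermentation enzymes, HB1 had the largest change of the 10 and HRA1 did not pass the test. Each is the 250 bases that end 1 base before the annotated gene start, read 5′ to 3′ on the gene's strand from RefSeq's TAIR10.1 assembly. They lie at chr1:28975005-28975254 (plus strand) for ADH1, chr4:15954804-15955053 (minus strand) for PDC1, chr2:6983778-6984027 (minus strand) for HB1 and chr3:3098418-3098667 (minus strand) for HRA1. Capitals mark the motifs that were searched.
ADH1: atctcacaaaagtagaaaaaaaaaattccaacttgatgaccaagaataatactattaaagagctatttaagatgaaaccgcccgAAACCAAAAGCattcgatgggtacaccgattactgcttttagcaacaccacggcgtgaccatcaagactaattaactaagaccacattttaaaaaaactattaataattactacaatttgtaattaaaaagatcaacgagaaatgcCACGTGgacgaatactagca
PDC1: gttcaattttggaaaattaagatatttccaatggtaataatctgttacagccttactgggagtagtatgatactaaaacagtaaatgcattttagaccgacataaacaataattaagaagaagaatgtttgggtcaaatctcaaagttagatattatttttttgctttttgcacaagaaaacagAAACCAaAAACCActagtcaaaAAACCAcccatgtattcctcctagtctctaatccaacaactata
HB1: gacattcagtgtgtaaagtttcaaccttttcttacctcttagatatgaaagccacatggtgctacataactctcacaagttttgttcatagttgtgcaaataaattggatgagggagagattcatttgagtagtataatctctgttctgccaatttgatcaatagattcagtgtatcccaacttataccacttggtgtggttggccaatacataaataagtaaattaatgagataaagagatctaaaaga
HRA1: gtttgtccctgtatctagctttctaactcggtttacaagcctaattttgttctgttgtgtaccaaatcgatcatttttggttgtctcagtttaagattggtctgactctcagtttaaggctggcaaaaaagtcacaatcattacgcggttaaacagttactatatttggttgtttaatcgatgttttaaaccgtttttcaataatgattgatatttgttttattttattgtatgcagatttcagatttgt

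The motifs were searched on both strands of this window for all 10 genes and for the 27443 protein-coding genes of the nuclear chromosomes. The first was the GT motif AAACCA, which reads TGGTTT where it lies on the opposite strand, a part of the anaerobic response element described in ADH genes. It was present in ADH1, PDC1, SUS1 and SAD6, 4 of the 10, against 27.3% of all promoters. PDC1 held it at 3 places between 66 and 39 bases before its start. The second was a loose form of the hypoxia-responsive promoter element, in which the same 6 letters are followed, after any 3 bases, by GC, so it overlaps the GT motif by construction. ADH1 alone of the 10 held this loose form, from 166 to 156 bases before the start, against 0.809% of all promoters. The search did not check which letters stood at the 3 free positions, so a match to the stricter element was not tested. The third was the G-box CACGTG, which was found in ADH1, 20 to 15 bases before its start, and in LBD41, against 6.49% of all promoters. HB1, PCO1, PCO2, SUS4 and HRA1 held none of these letters in the window. In the 1000 bases before the start, the loose element was present in ADH1, PDC1 and LBD41, against 3.41% of all promoters. The GT motif was present there in 9 of the 10, all but PCO1, against 71.8% of all promoters. The G-box was present there in ADH1, PCO2 and LBD41, against 14.8%.

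Among the 10 genes, 8 were higher in the RNAi line and 0 were lower (limma adjusted p under 0.05, over 19458 genes tested). The 10 genes were chosen with earlier results of these data known, so shares set beside those of all genes are descriptions. In whole seedlings, a change in the share of cells of a type and a change of RNA per cell cannot be told apart. Much of the transcriptome differed between the genotypes: 52.6% of all genes tested passed, 25.2% as higher and 27.5% as lower. With libraries scaled to equal sums, 7738 genes were higher and 3503 lower, against 4894 and 5346 with the values as deposited, and still 8 of the 10 were higher. The median log2 fold change was 1.35 over the 10 genes and -0.008 over all genes tested, on the log2(RPKM + 1) scale. The values of the groups did not overlap for 8 of the 10, all of them higher in the RNAi line. Among all genes tested, the groups did not overlap for 64.1%, and for 31.1% with the RNAi line higher. The estimated depth was 38.0 M to 49.9 M reads per Col-0 library and 43.7 M to 47.0 M per RNAi library. At these depths the 10 genes rested on an estimated 115 to 5959 reads per library. The estimate does not tell reads from read pairs. Replicate 3 of the RNAi line stood apart from its group, with a score of 21.7 on the first principal component of all genes tested, where the other RNAi libraries scored 49.8 and 42.6 and the Col-0 libraries -38.8 to -36.9. Without it, 8 of the 10 genes were still called higher.

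**Figure D1:**
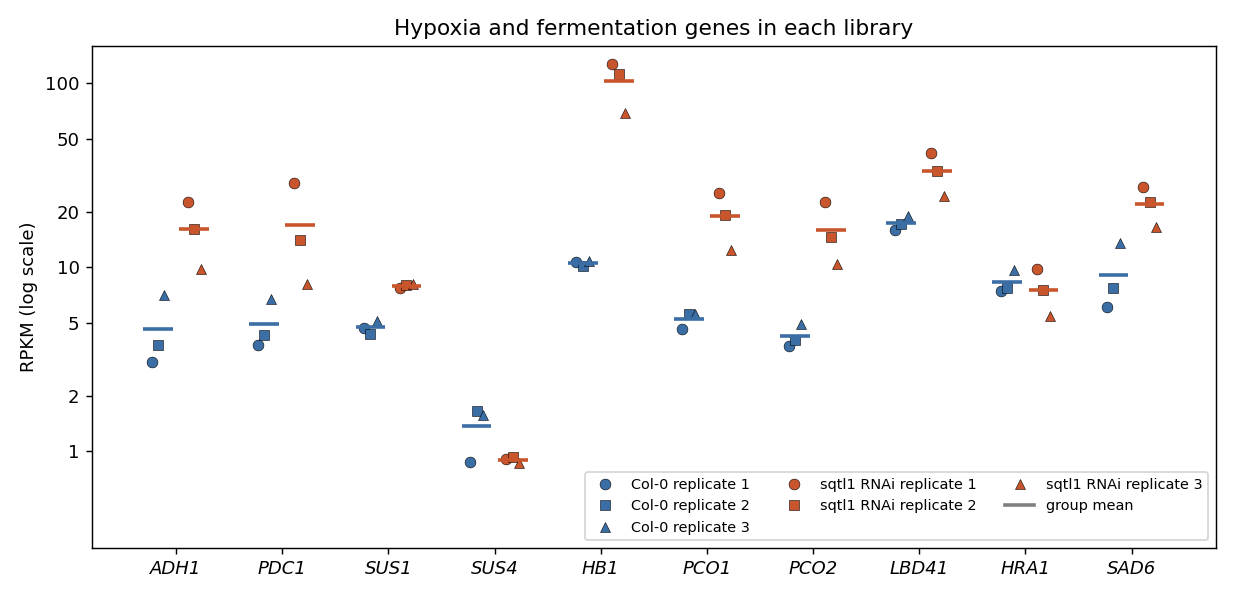
RPKM of each of the 10 genes in each library, on a log axis; marker shapes are replicate numbers, colours are genotypes and bars are group means. For 8 genes every RNAi value lies above every Col-0 value, while the groups overlap for SUS4 and HRA1.

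ADH1 and PDC1, a gene for each of the enzymes of ethanol fermentation, rose, while other pyruvate decarboxylase genes were lower. ADH1, the alcohol dehydrogenase of ethanol fermentation (chromosome 1, 28975255 to 28977417), was at 3.07, 3.77 and 7.05 RPKM in Col-0 replicates 1 to 3 and at 22.55, 16.10 and 9.77 RPKM in RNAi replicates 1 to 3. Col-0 replicate 3 and RNAi replicate 3 lay nearest to each other, and the groups did not overlap. The means were 4.63 ± 2.125 and 16.1 ± 6.39 RPKM (SD, n = 3), a ratio of 3.49, with a log2 fold change of 1.60 (SE 0.35, limma adjusted p = 0.00907). A protein-coding gene, AT1G77122, overlaps ADH1 in the annotation. It moved the other way, from 21.1 ± 1.09 to 17.6 ± 0.641 RPKM (limma adjusted p = 0.0101), and the sources used here do not say whether counting used strand, so the reads of the overlap cannot be told apart. No other gene of the 10 overlaps another annotated gene.

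PDC1, a pyruvate decarboxylase (chromosome 4, 15952257 to 15954803), was at 3.78, 4.28 and 6.71 RPKM in the Col-0 libraries and at 28.61, 14.05 and 8.11 RPKM in the RNAi libraries. Its spread in the RNAi line was the widest of the 10, with an SD of 0.853 log2 units against 0.364 in Col-0. The means were 4.92 ± 1.57 and 16.9 ± 10.5 RPKM (n = 3), 3.44-fold apart, and the log2 fold change was 1.46 (SE 0.42, limma adjusted p = 0.0256). This call was lost without Col-0 replicate 1 (adjusted p = 0.0879), without Col-0 replicate 2 (0.0796), without RNAi replicate 2 (0.0658) and with no filter on low values (0.101).

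PDC2, the pyruvate decarboxylase gene with the highest mean in both groups, was lower in the RNAi line, at 27.8 ± 0.712 against 21.3 ± 3.33 RPKM (log2 fold change -0.38, limma adjusted p = 0.0211). PDC3 also fell, 1.46-fold (limma adjusted p = 0.00907). The call of PDC2 was lost with libraries scaled to equal sums (adjusted p = 0.13), and without any 1 of the Col-0 libraries or RNAi replicate 2 (0.0589 to 0.0733). PDC1 held 10.9%, 12.5% and 18.1% of the summed RPKM of the 4 PDC genes in Col-0 against 51.6%, 39.97% and 27.6% in RNAi seedlings. The summed level itself overlapped between groups, at 34.4 to 37.1 RPKM in Col-0 and 29.3 to 55.5 RPKM in the RNAi line.

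Sucrose synthases feed sugar into glycolysis by splitting sucrose with UDP instead of water, which spares ATP. SUS1 (chromosome 5, 7050217 to 7055398) was at 4.71, 4.34 and 5.14 RPKM in Col-0 and at 7.73, 8.05 and 8.14 RPKM in the RNAi line. The RNAi libraries lay close together, with an SD of 0.0348 log2 units, the second smallest of the 10 after SUS4 at 0.0232. The rise was 1.69-fold, with a log2 fold change of 0.65 (SE 0.07, limma adjusted p = 0.000647). SUS4 (chromosome 3, 15179010 to 15184105) did not pass: it was at 0.88, 1.65 and 1.58 RPKM in Col-0 and at 0.91, 0.93 and 0.87 RPKM in the RNAi line. Col-0 replicate 1 lay among the RNAi values. Its log2 fold change was -0.30 with a 95% interval from -0.64 to 0.04 (limma adjusted p = 0.118), and without Col-0 replicate 1 it was called lower (log2 fold change -0.46, adjusted p = 0.0119). The coding sequences of SUS1 and SUS4 are 84.3% identical over 2427 aligned bases, with a longest shared run of 38 bases. The deposited table gives a multiple-mapping ratio of 0 for both, as for all 10 genes. SUS3, another sucrose synthase, rose from 2.38 ± 0.178 to 5.49 ± 1.07 RPKM (log2 fold change 0.93, limma adjusted p = 0.00138). SUS1 held 48.5% ± 3.07 of the summed sucrose synthase RPKM in Col-0 against 50.4% ± 4.62 in RNAi seedlings (n = 3), a difference of 1.92 points (exact permutation test, two-sided p = 0.6).

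HB1, a phytoglobin that scavenges nitric oxide, had the largest change and became the most abundant of the 10 genes. HB1 (chromosome 2, 6982531 to 6983777) was at 10.74, 10.22 and 10.88 RPKM in Col-0 and at 128.07, 112.84 and 68.70 RPKM in the RNAi line. The Col-0 libraries were almost level, and the lowest RNAi library was far above them. The means were 10.6 ± 0.348 and 103 ± 30.8 RPKM (n = 3), 9.72-fold apart, with a log2 fold change of 3.12 (SE 0.22, limma adjusted p = 0.000239). Its relative HB2 fell from 108 ± 6.65 to 61.1 ± 4.02 RPKM (log2 fold change -0.82, limma adjusted p = 0.000429), and GLB3, a truncated haemoglobin, rose from 7.40 ± 0.538 to 11.2 ± 1.93 RPKM (limma adjusted p = 0.00987). HB1 held 8.06% to 8.72% of the summed RPKM of the 3 haemoglobin genes in Col-0 and 49.95% to 62.0% in the RNAi line.

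PCO1 and PCO2, the oxygen-sensing cysteine oxidases that are themselves induced by hypoxia, rose by nearly equal amounts. PCO1 (chromosome 5, 4898641 to 4900734) was at 4.62, 5.57 and 5.57 RPKM in Col-0 and at 25.34, 19.38 and 12.37 RPKM in the RNAi line. PCO2 (chromosome 5, 15974270 to 15976270) was at 3.76, 4.04 and 4.91 RPKM in Col-0 and at 22.56, 14.67 and 10.45 RPKM in the RNAi line. In both genes RNAi replicate 1 was highest and RNAi replicate 3 lowest, with no overlap between groups. The ratios of means were 3.62 and 3.75, and both log2 fold changes were 1.63 (SE 0.23 and 0.25, limma adjusted p = 0.00196 and 0.00244). Their coding sequences are 68.5% identical over 819 aligned bases, with no shared run over 14 bases.

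None of the other cysteine oxidase genes was called higher. PCO3 fell from 8.30 ± 0.296 to 6.66 ± 0.476 RPKM (log2 fold change -0.28, limma adjusted p = 0.00969) and PCO4 from 12.6 ± 0.313 to 9.26 ± 0.269 RPKM (log2 fold change -0.41, limma adjusted p = 0.00098). PCO5 was at 13.5 ± 0.716 and 13.2 ± 1.23 RPKM and did not pass (limma adjusted p = 0.747). With libraries scaled to equal sums PCO3 did not pass either (adjusted p = 0.0797). PCO1 and PCO2 together held 19.2% to 23.5% of the summed RPKM of the 5 PCO genes in Col-0 and 42.4% to 63.6% in the RNAi line.

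**Figure D2:**
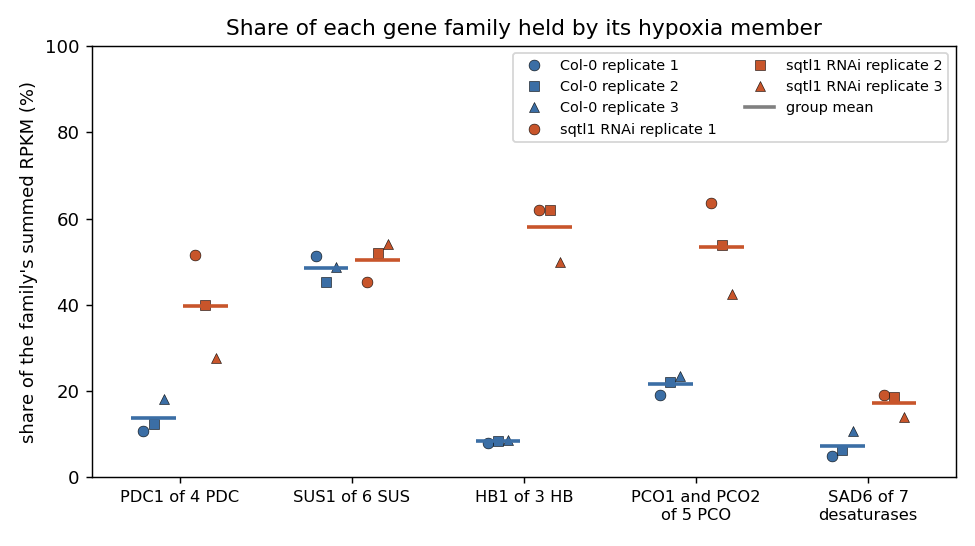
Share of each family's summed RPKM, in percent, that its hypoxia member or members held in each library; shapes are replicate numbers, colours are genotypes and bars are group means. The shares of PDC1, HB1, PCO1 with PCO2, and SAD6 do not overlap between groups, while that of SUS1 does.

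These shares do not depend on how libraries were scaled against each other. They were chosen after the values were seen and rest on the same RPKM as the calls, so they are a description. Of the 5 shares computed, 4 did not overlap between groups, each with an exact two-sided permutation p of 0.1, which is the smallest that 3 libraries against 3 can give. The fourth of them was SAD6, with 7.365% ± 3.03 of the summed acyl-ACP desaturase RPKM in Col-0 against 17.2% ± 2.835 in RNAi seedlings (n = 3).

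LBD41 and HRA1 are transcription factor genes of the hypoxia response, and they differed in outcome. LBD41, a LOB-domain factor (chromosome 3, 536500 to 538126), was the most abundant of the 10 in Col-0, at 16.04, 17.28 and 18.94 RPKM, and was at 42.03, 33.53 and 24.45 RPKM in the RNAi line. The groups did not overlap, and the log2 fold change was 0.87 (SE 0.18, limma adjusted p = 0.00808). HRA1 encodes a trihelix factor that binds RAP2.12 and restrains it. HRA1 (chromosome 3, 3096345 to 3098417) was at 7.47, 7.74 and 9.65 RPKM in Col-0 and at 9.80, 7.5 and 5.43 RPKM in the RNAi line. The RNAi values lay on both sides of the Col-0 values. Its log2 fold change of -0.14 had a 95% interval from -0.60 to 0.32 (limma adjusted p = 0.569), and it was 0.007 with libraries scaled to equal sums and 0.053 without RNAi replicate 3. Among other class II LOB-domain genes, LBD40 rose from 0.200 ± 0.0265 to 1.97 ± 1.01 RPKM (limma adjusted p = 0.00814). It entered the test only through its RNAi values. LBD38 rose 1.29-fold (limma adjusted p = 0.00227), and LBD37 was 1.16-fold lower (limma adjusted p = 0.034), a call lost in 9 alternatives, among them equal sums (0.495).

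SAD6, also annotated as FTM1, encodes a plastid stearoyl-ACP desaturase, an enzyme that puts the first double bond into fatty acids and needs oxygen to do so. SAD6 (chromosome 1, 16577521 to 16579722) was at 6.08, 7.72 and 13.51 RPKM in Col-0 and at 27.42, 22.76 and 16.60 RPKM in the RNAi line. Col-0 replicate 3 was nearer to the lowest RNAi library than to the other Col-0 libraries. The means were 2.45-fold apart, with a log2 fold change of 1.24 (SE 0.29, limma adjusted p = 0.0118), and the call was lost with no filter on low values (adjusted p = 0.0577). Of the 6 other acyl-ACP desaturase genes tested, none was higher and 4 (66.7%) were lower, beside 25.2% and 27.5% of all genes tested. Among the lower ones were AT3G02620, AT5G16240 and AT5G16230, which were 1.59-fold, 1.44-fold and 1.29-fold lower. Without RNAi replicate 2, and with equal sums, 2 were lower. The call of AT5G16240 was lost with no filter (adjusted p = 0.0636), without Col-0 replicate 1 (0.0665) or 3 (0.0509) and without RNAi replicate 2 (0.0643). That of AT5G16230 was lost with equal sums (0.0982) and when either Col-0 replicate 2 (0.0617) or RNAi replicate 2 (0.0507) was left out. SSI2, the main desaturase of the family, was at 57.0 ± 1.85 and 59.7 ± 8.84 RPKM and did not pass (limma adjusted p = 0.664).

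**Figure D3:**
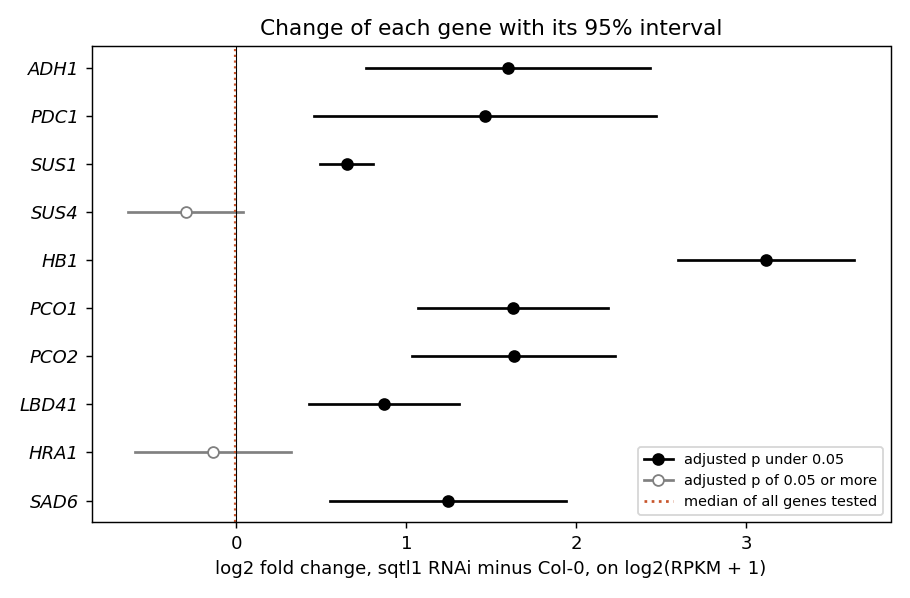
Log2 fold change of each gene, RNAi line minus Col-0, on the log2(RPKM + 1) scale, with its 95% interval from limma; filled points passed an adjusted p of 0.05 and the dotted line is the median of all genes tested. HB1 stands at 3.12, ADH1, PCO1 and PCO2 near 1.6, and the intervals of SUS4 and HRA1 include 0.

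The order of levels differed between genotypes. In Col-0, LBD41 led with a mean of 17.4 RPKM, followed by HB1 with 10.6, SAD6 with 9.10 and HRA1 with 8.29 RPKM, and the ranges of the last 3 overlapped from each neighbour to the next. PCO1, PDC1, SUS1, ADH1 and PCO2 followed between 5.25 and 4.24 RPKM with ranges that overlapped from each neighbour to the next, and SUS4 was lowest at 1.37 RPKM. In the RNAi line HB1 led with 103 RPKM and LBD41 followed with 33.3. Their ranges did not overlap. SAD6, PCO1, PDC1, ADH1 and PCO2 lay between 22.3 and 15.9 RPKM, with ranges that overlapped from LBD41 onwards. SUS1 and HRA1 followed at 7.97 and 7.58 RPKM, and SUS4 was lowest at 0.903 RPKM.

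Most of the 10 genes ranked the libraries alike. In the RNAi line, 8 of 10 had their highest value in replicate 1 and their lowest in replicate 3; SUS1 and SUS4 did not. This order was seen in 29.2% of all genes tested and in 54.7% of the 4894 genes called higher. In Col-0, 8 of 10 were highest in replicate 3, an order seen in 29.3% of all genes tested. The SD between Col-0 libraries was 0.515 log2 units for ADH1 and 0.533 for SAD6, where the median gene tested had 0.0566. In the RNAi line the SDs were 0.567 and 0.349, against a median of 0.111. Without replicate 3 of both groups, an alternative chosen after seeing the data, the log2 fold change of ADH1 was 2.19 and that of SAD6 1.73, and 8 of the 10 genes were called higher.

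**Figure D4:**
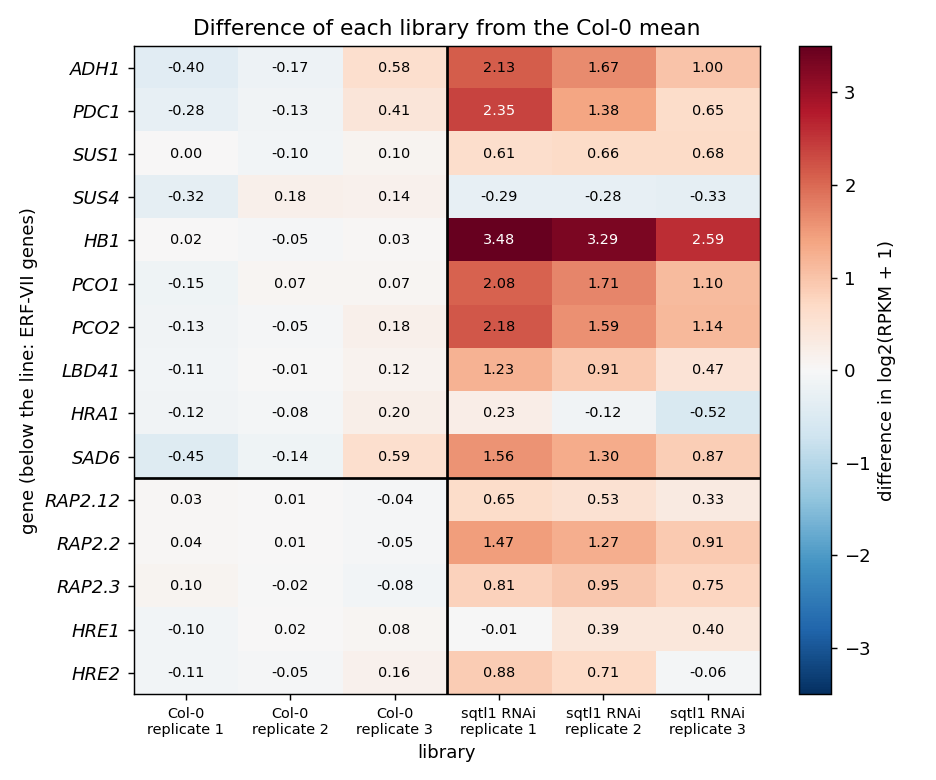
Difference of each library from the Col-0 mean, in log2(RPKM + 1), for the 10 genes and, below the line, the 5 ERF-VII genes; red is above and blue below the Col-0 mean. RNAi replicate 1 carries the highest values of most rows and RNAi replicate 3 is paler. Col-0 replicate 3 is above 0 for each of the 10 genes, most for SAD6, ADH1 and PDC1.

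The gene most like ADH1 was NAS4, a nicotianamine synthase gene of metal transport, at 3.19 to 3.55 RPKM in Col-0 and 17.43, 12.89 and 7.88 RPKM in RNAi replicates 1 to 3. Likeness was the root mean square difference between the log2 differences from the Col-0 mean over the 3 RNAi libraries, and it was 0.033 log2 units for NAS4. It was followed by AT3G04165, annotated as a small nucleolar RNA gene, the thioesterase gene AT1G35290, PCO1 at 0.069 and AT2G00370, annotated as a noncoding RNA. AT1G35290 and AT2G00370, with Col-0 means of 0.957 and 0.02 RPKM, reached the filter only through their RNAi values. At such a level the log2 difference of AT2G00370 depends largely on the 1 added to each RPKM. PCO2 ranked seventh, at 0.094, and PDC1 ranked 91, at 0.291, among the other 19457 genes. SAD6 ranked 163, LBD41 610 and SUS1 1482. HB1 ranked 6194, HRA1 11173 and SUS4 14728. With 3 libraries behind the measure, this is a description of these libraries.

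Of the 5 genes for ERF-VII factors, RAP2.2, RAP2.3 and RAP2.12 were higher at the RNA level. RAP2.2 was at 70.64, 68.85 and 66.32 RPKM in Col-0 and at 191.24, 166.76 and 129.46 RPKM in the RNAi line (log2 fold change 1.21, SE 0.14, limma adjusted p = 0.000909). RAP2.3 rose from 72.6 ± 4.83 to 130 ± 9.51 RPKM and RAP2.12 from 83.9 ± 2.17 to 119.5 ± 13.2 RPKM (limma adjusted p = 0.000495 and 0.00388). These 3 constitutive factors are controlled mainly through the stability of their proteins, which was not measured. HRE1, a hypoxia-induced factor, was at 8.08, 8.88 and 9.30 RPKM in Col-0 and 8.68, 11.72 and 11.81 RPKM in the RNAi line and did not pass (limma adjusted p = 0.113), though it did with equal sums (0.0219), array weights (0.000171) and voom weights (0.0227) and without RNAi replicate 1 (0.00358). HRE2, the other induced factor, was under the filter and was not tested. It stood at 0.39, 0.45 and 0.67 RPKM in Col-0 and at 1.76, 1.45 and 0.44 RPKM in the RNAi line, with replicate 3 inside the Col-0 range. Of 13 tested genes of the ERF-VII factors and of oxygen-dependent degradation, 4 (30.8%) were higher, these 3 and the ubiquitin ligase gene PRT6, and 2 (15.4%) were lower, PCO3 and PCO4, beside 25.2% and 27.5% of all genes tested. Their median log2 fold change was 0.13. With libraries scaled to equal sums, 9 were higher and 1 was lower.

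A wider list of hypoxia-responsive genes moved in both directions. Of 41 genes, 36 were tested, and 20 of these (55.6%) were higher and 8 (22.2%) lower, beside 25.2% and 27.5% of all genes tested. Their median log2 fold change was 0.34. The list holds HRE1, HRE2 and PDC2, described above. AT1G19530, a gene of unknown role, was at 5.75, 8.03 and 7.43 RPKM in Col-0 and 47.63, 88.28 and 73.20 RPKM in the RNAi line, 9.86-fold higher on average (limma adjusted p = 0.000276). Unlike most of the 10 genes it was lowest in RNAi replicate 1. The rhodanese-like gene AT2G17850 rose 5.76-fold and AT4G10265, annotated as wound-responsive, 5.01-fold (limma adjusted p = 0.00392 and 0.00184). The lower genes with the largest change were ACHT5, an atypical plastid thioredoxin, AT1G35140, a phosphate-responsive family gene, and the jasmonate repressor gene JAZ3, which were 1.66-fold, 1.60-fold and 1.66-fold lower (limma adjusted p = 0.0148, 0.0213 and 0.000482). With no filter on low values 15 genes of the list were higher and 3 lower, and 3 to 9 were lower when 1 library was left out. ACHT5 and AT1G35140 were among the calls lost with no filter (adjusted p = 0.0648 and 0.0845); ACHT5 was also lost without Col-0 replicate 2 or 3, and AT1G35140 without Col-0 replicate 1 or 3 or RNAi replicate 2 (0.054 to 0.0764).

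Most genes of the glycolysis list were not called, and relatives of the fermentation genes moved in both directions. Of 21 cytosolic glycolysis and related genes, all tested, 4 (19.0%) were higher and 1 (4.76%) was lower. Among all genes tested, 25.2% were higher and 27.5% lower. The median log2 fold change of the glycolysis list was 0.11. The list holds no pyruvate kinase gene, and it counts UGP1, UGP2 and PPDK. With equal sums 7 were higher and 0 lower. Without RNAi replicate 1, 4 were higher and 7 lower, without any 1 of the Col-0 libraries or RNAi replicate 2, 3 were higher and 0 lower, and with array weights 9 were higher and 7 lower. The higher genes were led by PPDK, which makes phosphoenolpyruvate from pyruvate, at 4.14 ± 0.241 against 23.1 ± 2.95 RPKM (limma adjusted p = 7.97e-05). The phosphofructokinase gene PFK2 and the aldolase gene FBA6 rose 2.02-fold and 1.53-fold. PFK1 was 1.12-fold lower (limma adjusted p = 0.0203), which became a log2 fold change of 0.001 with equal sums; the call was also lost without any 1 of the Col-0 libraries or RNAi replicate 2 (0.0511 to 0.0866). Of 12 tested relatives in sucrose cleavage and fermentation, 6 (50%) were higher and 4 (33.3%) lower, and the median was 0.07 log2 units. Without any 1 of the Col-0 libraries or RNAi replicate 2, 4 were higher and 2 lower, and with equal sums 2 were lower. Besides SUS3, the alanine aminotransferase gene AlaAT2 rose 2.02-fold (limma adjusted p = 0.000592) and the aldehyde dehydrogenase gene ALDH2B7 1.43-fold (0.00749). CINV2, a cytosolic invertase that competes with sucrose synthase for sucrose, was 1.41-fold lower (limma adjusted p = 0.00208). Its more abundant relative CINV1 was at 117 ± 1.29 RPKM in Col-0 and 112 ± 21.8 RPKM in the RNAi line and did not pass (limma adjusted p = 0.634).

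**Figure D5:**
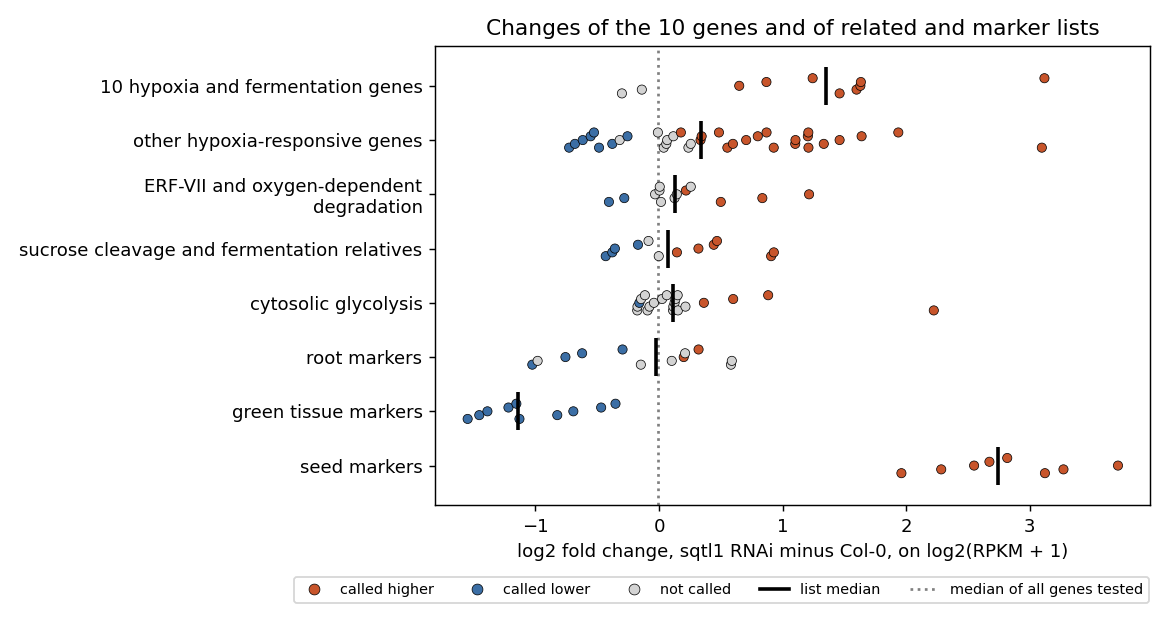
Log2 fold change, RNAi line minus Col-0, of every tested gene in the 10-gene set and in related and marker lists; bars are list medians and the dotted line is the median of all genes tested. The 10 genes have a median of 1.35, the wider hypoxia list 0.34 and the cytosolic glycolysis list 0.11.

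Markers of tissue makeup also differed between the groups, and their part in the results on the 10 genes was not tested. The counts below stand beside 25.2% of all genes tested that were higher and 27.5% that were lower. The 10 green tissue markers, genes of photosynthesis, summed to 39809 to 42518 RPKM in Col-0 and to 17129, 18734 and 27391 RPKM in RNAi replicates 1 to 3, and all 10 were lower, LHCA4, LHCA1 and LHB1B1 most. Without the filter 1 of the 10 was, with quantile normalization 5 were, and 6 were without Col-0 replicate 1 or 2 or RNAi replicate 2. The 14 root markers summed to 333 to 369 RPKM in Col-0 and 253 to 263 RPKM in the RNAi line. This sum rests mostly on RCI3, CASP1 and PHO1, at 144, 89.9 and 56.8 RPKM on average in Col-0, and each was called lower. Of 12 tested, 2 (16.7%) were higher, SHR and SCR, and 4 (33.3%) were lower, with GL2, RCI3 and CASP1 2.91-fold, 1.70-fold and 1.55-fold lower. Without RNAi replicate 3, 5 were higher and 6 lower. The 10 seed markers, storage protein and oil body genes, summed to 0.630 to 3.13 RPKM in Col-0 and to 167, 47.9 and 27.3 RPKM in RNAi replicates 1 to 3. SESA1, CRA1 and SESA2 had the largest log2 fold changes. All 8 that were tested were higher, but the mean of each in Col-0 was under 1 RPKM, so it passed the filter on the strength of the RNAi libraries. With no filter 4 were called higher, and 5 without Col-0 replicate 1 or 3. Of 9 tested sugar starvation markers, 2 (22.2%) were higher, AT2G19900 (NADP-ME1) and AT1G21400, and 0 were lower. AT2G19900, at 0.29 RPKM on average in Col-0 against 2.57 in the RNAi line, reached the filter only through its RNAi values. Without RNAi replicate 1, 7 were higher, and without any 1 of the Col-0 libraries or RNAi replicate 2 only 1 was. The sum of all 10 was 998 to 1082 RPKM in Col-0 and 751, 1264 and 1635 RPKM in RNAi replicates 1 to 3. AT2G19900 had the opposite order in these replicates, at 3.84, 2.47 and 1.41 RPKM.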

How the data were processed

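Whole-seedling RNA of 3 Col-0 and 3 sqtl1 RNAi replicates was measured by poly(A)-selected, strand-marked paired-end sequencing, per the labels' protocols. The deposited values are RPKM to 2 decimals, with a gene length and a multiple-mapping ratio, a fraction per gene taken here to be the part of its reads that map to several places, per the file headers. The submitters' processing notes name Trimmomatic 0.39, Bowtie2 2.2.6 and TAIR10; the sources used here do not give the counting tool, the use of strand or the scaling between libraries. Of 38199 lines, 5 without a gene were left out.

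RPKM is no count, so groups were compared with limma 3.58.1 (R 4.3.3) on log2(RPKM + 1), with a trended variance prior, for the 19458 genes whose mean over the 6 libraries reached 1 RPKM, and with Benjamini-Hochberg adjustment over all of them. Fold changes on this scale understate those of low genes; ratios are of mean RPKM. The fit was tested on simulated data. Depth was estimated from the steps that single reads, or single read pairs, leave in genes under 0.4 kb. Of low values, 83.7% to 92.2% lay within 0.0055 RPKM of a step, after an offset of 0.25 reads. RPKM times length summed to 926820 to 1071470 per library.

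The 10 genes and the lists were chosen with earlier results of these data known, and the shares within families after the values were seen. The list of 41 hypoxia-responsive genes was drawn up from general knowledge of the response and overlaps other lists. Besides the 10 genes, the text names up to 3 higher and 3 lower genes per list, those with the largest change. It also names all ERF-VII genes, PDC2, HB2 and SUS3, and the 5 genes most like ADH1. The gene overlapping ADH1, PCO5, SSI2, PRT6 and CINV1 were chosen after their values were seen. All 156 list identifiers were in the table and in RefSeq's TAIR10.1 gene table, from which promoters and coding sequences were taken. No protein sequence was used here. Same-numbered replicates did not pair: the correlations of their deviations from the group means were -0.0642, 0.0928 and 0.0198.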

Additional observations from a re-analysis of the deposited data

How the results depend on the processing

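Of the 10 genes, 8 were called higher with either other pseudocount, a filter at 5 RPKM, equal sums, quantile normalization, array weights, a constant variance prior and, both chosen after seeing the data, voom weights on estimated reads and without replicate 3 of both groups. With no filter 6 were, PDC1 and SAD6 being lost (log2 fold changes 1.46 and 1.24, adjusted p = 0.101 and 0.0577). SUS4 was not tested with a filter at 5 RPKM and was called lower with array weights (-0.32, adjusted p = 0.00984), which makes 1 lower gene; that fit stopped before convergence. HRA1 changed sign with equal sums (0.007), without RNAi replicate 3 (0.053) and without replicate 3 of both groups (0.155), and PFK1 with equal sums and voom (0.001 in each); it passed in none of these. The cause was not tested.

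Leaving out each library in turn gave 7 to 8 higher and 0 to 1 lower genes of the 10. Log2 fold changes ranged from 1.33 to 1.90 for ADH1, 1.01 to 1.86 for PDC1, 2.94 to 3.38 for HB1, 1.40 to 1.89 for PCO1, 1.36 to 1.88 for PCO2, 0.60 to 0.70 for SUS1, -0.458 to -0.211 for SUS4, 0.69 to 1.07 for LBD41, -0.321 to 0.053 for HRA1 and 1.02 to 1.54 for SAD6. Of the wider hypoxia list, 16 to 20 were higher and 3 to 9 lower, and of the ERF-VII and degradation list 3 to 5 were higher and 2 lower. Over all genes, 3495 to 5538 were higher and 4011 to 6034 lower.

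Equal sums moved the median of all genes tested to 0.136 and voom to 0.155. All genes called were then 7738 and 7749 higher and 3503 and 3554 lower, against 4894 and 5346; 5 genes of the wider hypoxia list were lower in each, and 9 of the ERF-VII and degradation list were higher and 1 lower in each. With array weights, 15553 genes were called, 7717 of them and 7 of the ERF-VII and degradation list were higher. With no filter 3 of the wider list were lower. The numbers do not pair the samples; with the replicate block, 7 of the 10 genes were higher, PDC1 being lost (1.46, adjusted p = 0.0542), HRE1 passed (0.0467), and 9034 genes were called in all, against 10240. Of 43 other named genes, 662 of 723 values kept direction and side of the threshold.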
